A study of Mus musculus with 20 samples.

Results

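The clustered protocadherins were taken as the protein-coding genes of mouse chromosome 18 whose symbol begins with Pcdha, Pcdhb or Pcdhg followed by a letter or digit. This gave 57 genes of the 21887 protein-coding genes in the gene table, namely 14 in the alpha, 22 in the beta and 21 in the gamma subcluster. They span 912 kb of chromosome 18 (36930285 to 37841873 in mm10 coordinates). The symbols alone chose them, and no measured value did. Pcdhgb8, listed as a transcribed pseudogene, was not a member.

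The data are chromatin immunoprecipitation with sequencing (ChIP-seq) from cells of the mouse mammary epithelial line Comma-Dβ, grown to passage 28. The 20 samples formed 5 groups with 4 replicates in each. The groups were precipitated for HEB, H3K4me3, H3K27ac or H3K27me3, or were input chromatin without antibody. All groups came from the same line and growth medium, so the comparison is between genes and regions within each antibody's list and not between conditions. Each antibody was analysed from 1 deposited peak list for its 4 replicates. No list has a column per replicate and read depth is unknown, so no value below has a replicate error and no test was made.

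Clustered protocadherins are cell-surface adhesion proteins that are best known in neurons, where each cell uses its own small set of them as an identity label. In the alpha and gamma subclusters each gene has its own promoter and its own large first exon, which is joined to last exons that the whole subcluster shares. The beta genes each consist of a single large exon. In mouse neurons the alternate genes are picked one by one through CTCF and cohesin, which bring a promoter to a distant enhancer, while the C-type genes at the end of the alpha and gamma subclusters are used more uniformly. H3K4me3 marks promoters, often but not always ones in use. H3K27ac marks active promoters and enhancers, and H3K27me3 is the product of Polycomb complexes and goes with silencing. HEB, encoded by Tcf12, is an E protein transcription factor.

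The gene ends in the table follow this layout. The 14 alpha members began 5.41 to 69.9 kb apart and ended within 1240 bp of each other, and the 21 gamma members began 4.15 to 40.8 kb apart and ended within 10 bp of each other. The 22 beta members were 2.34 to 5.27 kb long with an end each. The unshared, lower end was therefore used as the start of alpha and gamma members, and the beta members, which are transcribed in the same direction, were treated alike. A start was counted as marked when a peak reached within 1 kb of it. The 57 starts were all more than 1 kb apart.

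Active marks sat mostly at the far end of the cluster and H3K27me3 mostly at its beginning. H3K27ac lay at the starts of 4 of 57 members, all in the gamma subcluster. These were Pcdhgb7 and the 3 C-type genes Pcdhgc3, Pcdhgc4 and Pcdhgc5. H3K4me3 lay at 12 starts, of which 8 were gamma, 3 beta and 1 alpha. H3K27me3 lay at 11 starts, of which 9 were alpha, 2 beta and none gamma. In all 35 members had none of the marks at the start.

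As shares of the members, H3K4me3 was at 21.1%, H3K27ac at 7.02% and H3K27me3 at 19.3%. The same count over 17492 other protein-coding genes gave H3K4me3 at 54.8%, H3K27ac at 50.3% and H3K27me3 at 26.9%. The members therefore had a smaller share of each mark than other genes, with the widest gap for H3K27ac. H3K4me3 together with H3K27ac and without H3K27me3 was found at 4 members, or 7.02%, against 44.6% of other genes. H3K4me3 alone was found at 7 members, or 12.3%, against 2.29% of other genes, and H3K27me3 alone at 10 members, or 17.5%, against 18.7%. Starts without any of the marks made up 61.4% of members, against 23.6% of other genes. Most marks at members were weak. When peaks under a −log10 q of 5 were left out, H3K4me3 remained at 7 members, H3K27ac at 2 and H3K27me3 at 2, and these marks were at 53.6%, 44.7% and 14.4% of other genes.

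**Figure D1:**
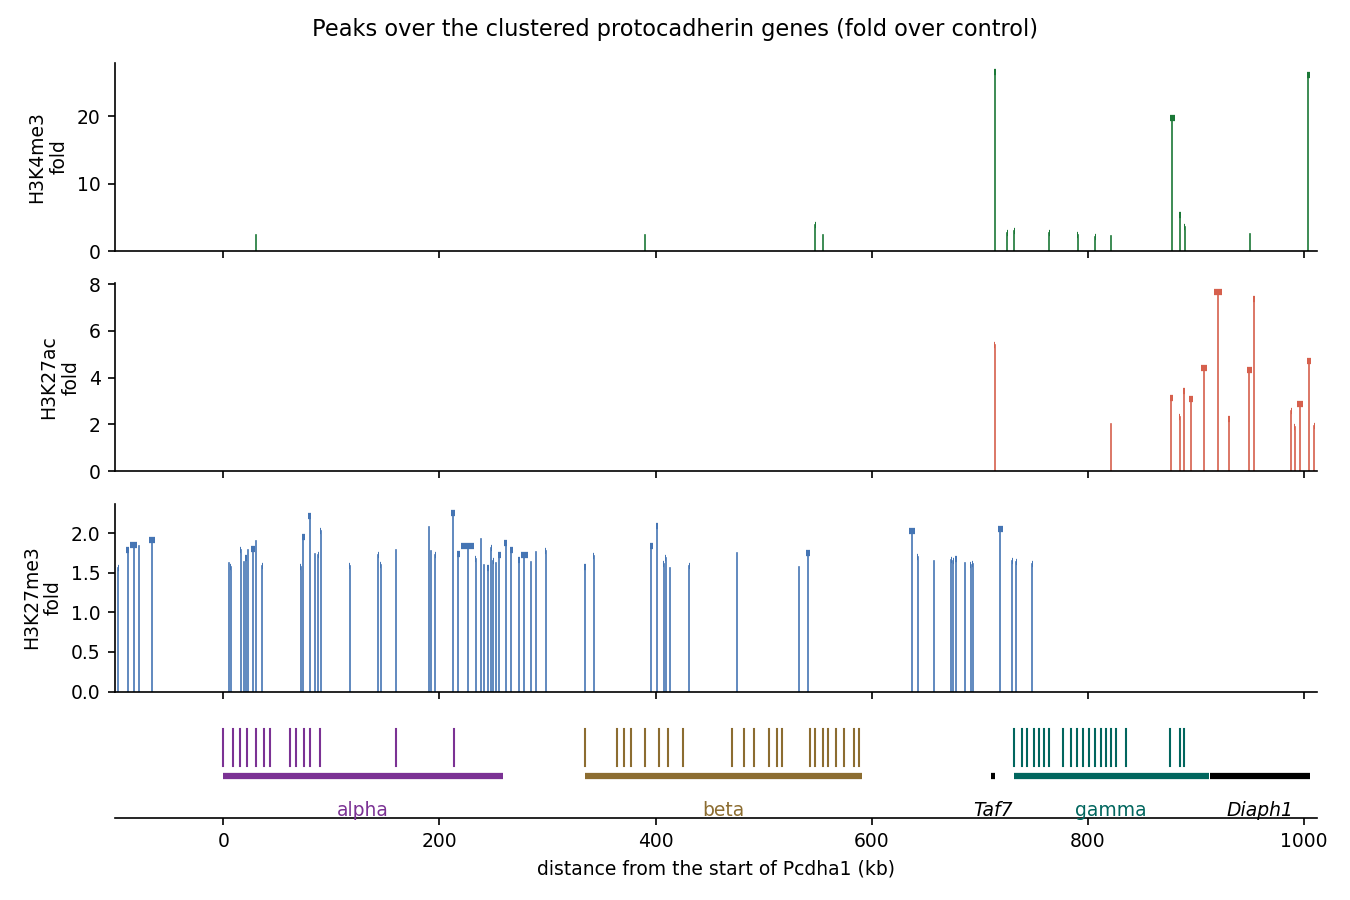
Peaks of each mark over the cluster and 100 kb on either side. The x axis gives the distance from the start of Pcdha1 in kb and the y axes the authors' fold enrichment of each peak, drawn as a bar of its width on a stem, with member starts as ticks in the lowest panel. H3K27ac has no peak before Taf7, the strongest H3K4me3 peak at a member belongs to Pcdhgc3 at 19.7-fold, and H3K27me3 peaks crowd over the alpha subcluster and end early in the gamma subcluster.

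Among member starts, Pcdhgc3 and Pcdhgc4 had the highest H3K4me3 folds, and the 3 C-type gamma genes the highest H3K27ac folds. Pcdhgc3, whose product shapes dendrites in mouse neurons through Axin1, had an H3K4me3 peak of 4863 bp with a fold of 19.7 and a −log10 q of 341 (chromosome 18, 37805745 to 37810607). That peak ran from 665 bp before the start to 4197 bp past it and was wider than 97.1% of the H3K4me3 list. Among the 9589 other genes with H3K4me3 at the start the median fold was 20.4 (interquartile range 12.6 to 28.3) and the median width 2257 bp (1661 to 3023). Pcdhgc3 thus stood near the middle of other marked genes in fold, above 47.3% of them, and near the top in width, above 95.8% of them.

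Its H3K27ac was weaker by the same comparison. The H3K27ac peak at Pcdhgc3 was 2930 bp wide with a fold of 3.12 and lay wholly inside the H3K4me3 peak. The median fold of H3K27ac at other marked starts was 4.34 (interquartile range 3.18 to 5.89, n = 8807 genes), and 23.5% of those genes had a lower fold than Pcdhgc3.

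Pcdhgc4, which interneurons need for survival in mouse, had H3K4me3 at a fold of 5.35 over 1881 bp and H3K27ac at a fold of 2.34 over 1703 bp. These peaks shared 1686 bp. Pcdhgc5, the last member of the cluster, had H3K4me3 at a fold of 3.52 over 591 bp and H3K27ac at a fold of 3.43 over 1732 bp, and the narrower peak lay inside the wider one. Across the 3 genes the H3K4me3 fold was highest at Pcdhgc3 and lowest at Pcdhgc5, while the H3K27ac fold was highest at Pcdhgc5 and lowest at Pcdhgc4. Pcdhgc4 starts 8.67 kb after Pcdhgc3 and Pcdhgc5 starts 4.47 kb after Pcdhgc4, and the 3 genes use the same last exons.

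The C-type genes of the alpha subcluster had the opposite mark. Pcdhac2, which serotonergic axons need for even spacing in mouse, had an H3K27me3 peak of 3812 bp across its start with a fold of 2.26 and a −log10 q of 6.47, the highest fold of that mark at any member. Pcdhac1 had a 392 bp peak with a fold of 1.78 that ended 1 bp past its start. Neither had H3K4me3 or H3K27ac, and the nearest H3K4me3 peaks lay 177 kb from the start of Pcdhac2 and 129 kb from that of Pcdhac1. The 5 C-type genes were thus split by subcluster, with both active marks at the 3 gamma genes and H3K27me3 at the 2 alpha genes. The split rests in part on weak peaks. The −log10 q was 2.52 for H3K27me3 at Pcdhac1 and 3.62 for H3K27ac at Pcdhgc4, both under 5.

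**Figure D2:**
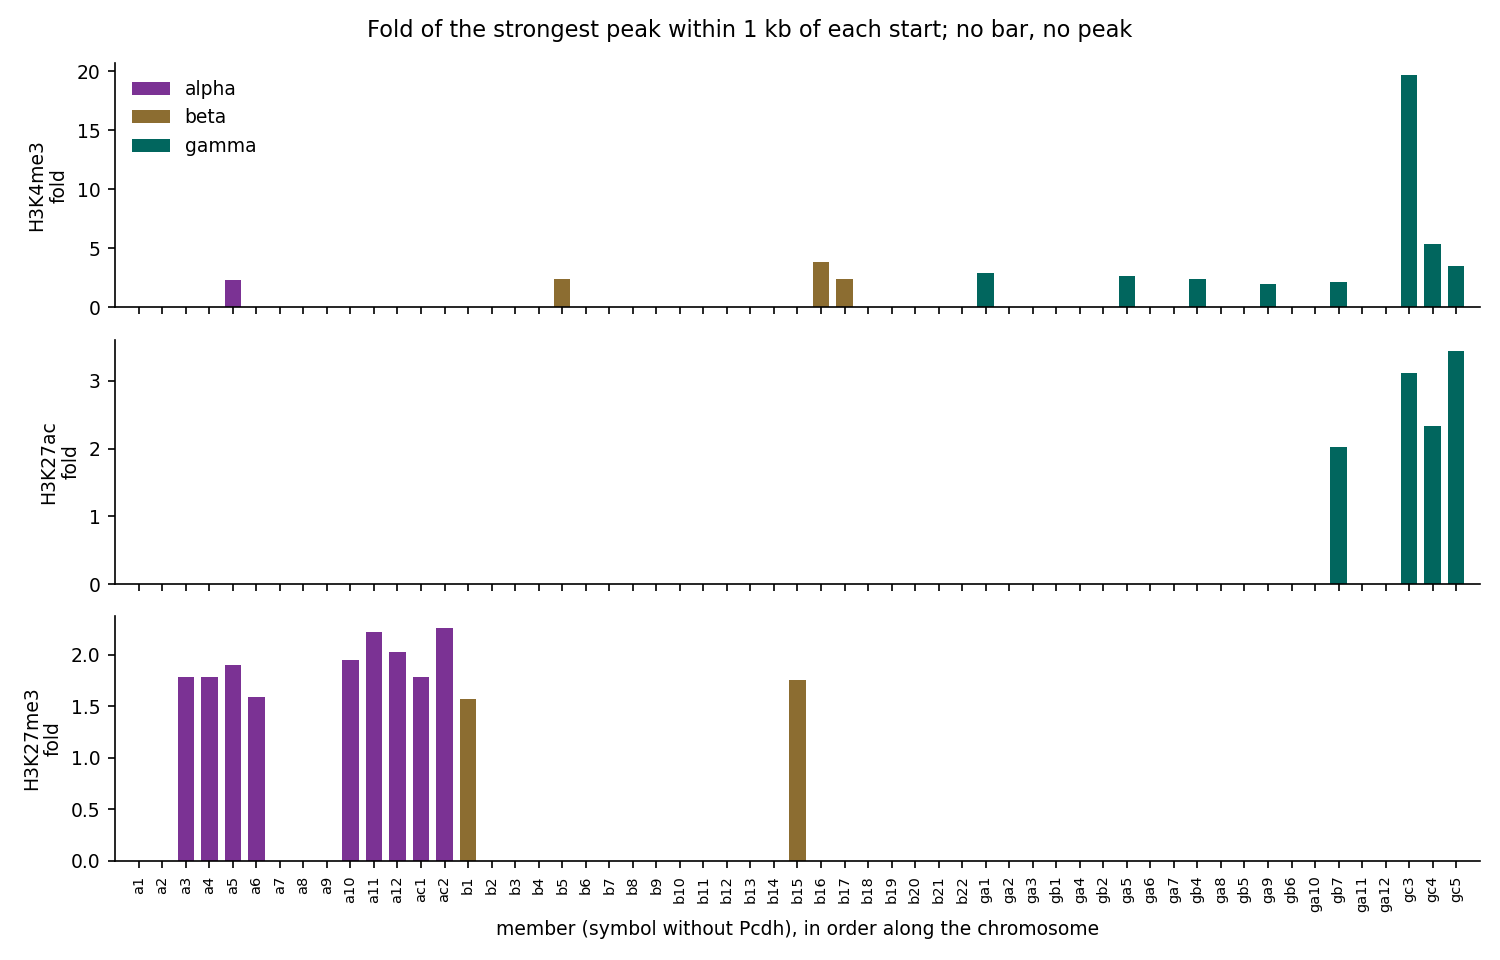
Fold enrichment of the strongest peak within 1 kb of each member start, by mark. The x axis lists the 57 members in chromosomal order, the y axes give the authors' fold, and a member without a bar has no peak there. H3K27ac stands at 4 gamma members, H3K4me3 at 12 members with 19.7 at Pcdhgc3, and H3K27me3 at 11 members, from 1.57 at Pcdhb1 to 2.26 at Pcdhac2.

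Outside the C-type genes, H3K4me3 was present at scattered single members as small, weak peaks. There were 9 such members, namely Pcdha5 in the alpha subcluster, Pcdhb5, Pcdhb16 and Pcdhb17 in the beta subcluster, and Pcdhga1, Pcdhga5, Pcdhgb4, Pcdhga9 and Pcdhgb7 in the gamma subcluster. Their folds ran from 2.01 to 3.83 with a median of 2.42, and their widths from 291 to 867 bp with a median of 387 bp. The strongest was Pcdhb16, at a fold of 3.83 over 814 bp, and 5.91% of other marked genes had a lower fold. The weakest was Pcdhga9, at a fold of 2.01 over 336 bp, and 0.636% of other marked genes had a lower fold. Pcdhgc5, a C-type gene, lay in the same ranges at a fold of 3.52 over 591 bp, above 5.17% of other marked genes. Pcdhgc4, at a fold of 5.35, stood above 9.10% of them. Of all 12 members with H3K4me3, 11 lay below the median fold of the whole list, which was 12.9.

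Pcdhga1, the first gamma gene, had a fold of 2.93 over 867 bp, the widest of these small peaks. Pcdhga5 had a fold of 2.64 and Pcdhgb4 one of 2.39. Pcdhb5 had a fold of 2.45 and Pcdhb17 one of 2.42, with widths of 291 and 436 bp. By gene type, H3K4me3 was at 3 of 12 Pcdhga and 2 of 6 Pcdhgb genes. Pcdhb16 and Pcdhb17 are neighbours, and no other members outside the C-type genes that carried H3K4me3 stood next to each other.

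The small peaks shared a position. Of the 9 peaks, 8 began past the start, by 11 bp at Pcdhb17 up to 102 bp at Pcdhgb7, and the other, at Pcdhga1, began 40 bp before it. All 9 ended inside the gene, from 356 bp past the start at Pcdhb5 to 828 bp at Pcdhb16. The peak at the C-type gene Pcdhgc5 had a like position, from 43 to 633 bp past the start. No H3K4me3 peak in the subclusters lay elsewhere, as all 12 peaks found there were within 1 kb of a member start, and each belonged to a different member. Unmarked members did not depend on the window of 1 kb for this mark, since the nearest H3K4me3 peak to any of them was 3761 bp away, from Pcdhga11. Whether signal at their starts fell just short of a peak call is unknown.

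Pcdhgb7 was the single member outside the C-type genes with H3K27ac. Its H3K27ac peak was 281 bp wide with a fold of 2.03 and a −log10 q of 2.15, and it shared 190 bp with an H3K4me3 peak of 292 bp and a fold of 2.16. Of the H3K27ac list, 28.6% of peaks had a lower fold and 4.49% were narrower. Its signal was thus weak for both marks.

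**Figure D3:**
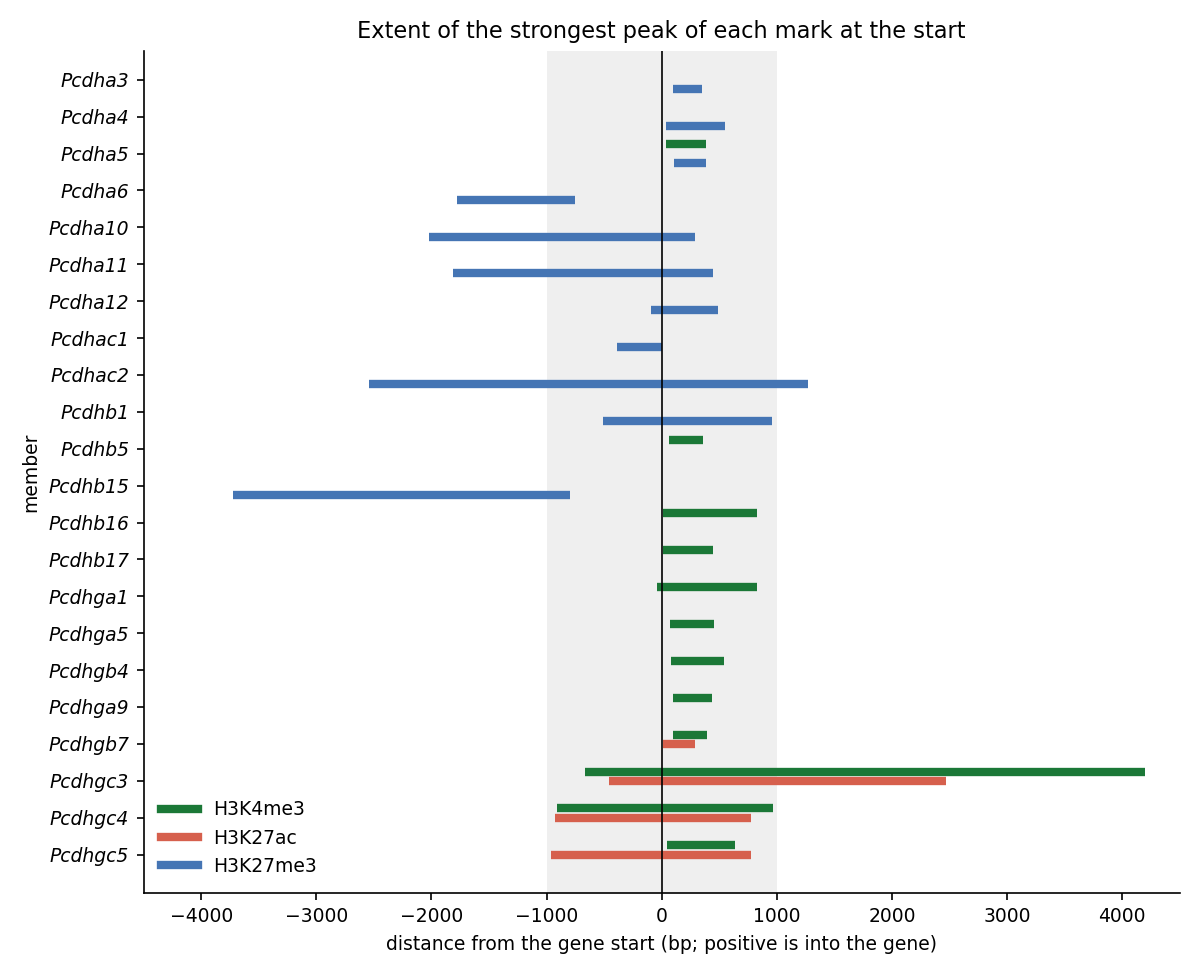
Extent of the strongest peak of each mark at each marked start. The x axis gives the distance from the gene start in bp, positive into the gene, the rows are the 22 members with a mark, and the shaded band is the window of 1 kb. The small H3K4me3 peaks begin close to the start, the latest at 102 bp, and those at Pcdhgc3 and Pcdhgc4 reach to both sides of it.

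H3K27me3 marked most of the alpha genes. It lay at the starts of 7 of the 12 alternate alpha genes, Pcdha3, Pcdha4, Pcdha5, Pcdha6, Pcdha10, Pcdha11 and Pcdha12, besides Pcdhac1 and Pcdhac2. The first 2 genes, Pcdha1 and Pcdha2, and the neighbours Pcdha7, Pcdha8 and Pcdha9 had no mark at the start. Alpha members carried H3K27me3 in 64.3% of cases, against 26.9% of other genes. Most of these peaks were weak, and with a −log10 q of 5 or more the mark was at 2 of 14 alpha starts, against 14.4% of other genes, so the alpha genes then did not stand above other genes.

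These peaks were mostly small. Pcdha11 had the strongest of the alternate genes, with a fold of 2.22 over 2263 bp, followed by Pcdha12 with 2.03 over 581 bp and Pcdha10 with 1.95 over 2317 bp. Pcdha3 had a fold of 1.78 over 252 bp, and Pcdha4 one of 1.78 over 515 bp. Among the 4712 other genes with H3K27me3 at the start, the median fold was 2.14 (interquartile range 1.85 to 2.59) and the median width 6179 bp. In fold, Pcdhac2 stood above 58.1% and Pcdha11 above 55.6% of those genes, and in width they stood above 37.0% and 25.2% of them. At 6 alpha members, Pcdha3, Pcdha4, Pcdha5, Pcdha10, Pcdha11 and Pcdha12, the peak ended between 292 and 547 bp past the start.

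Pcdha5 was the single member with H3K4me3 and H3K27me3 together. Its H3K27me3 peak of 280 bp, with a fold of 1.90, lay wholly inside its H3K4me3 peak of 350 bp, with a fold of 2.31. The state without H3K27ac was found at 5.12% of other genes.

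In the beta subcluster H3K27me3 reached the starts of Pcdhb1, the first gene, and Pcdhb15. The peak at Pcdhb1 had a fold of 1.57 over 1475 bp and spanned the start. The peak near Pcdhb15 had a fold of 1.75 over 2931 bp and ended 798 bp before the start. That distance, and the 756 bp from Pcdha6 to its peak, were the longest inside the window, and the members just outside were Pcdhb6 at 1063 bp, Pcdhgb1 at 1133 bp and Pcdhga1 at 1288 bp.

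The beta subcluster was the emptiest. Of its 22 genes, 17 had no mark at the start, and 15 had no peak of any mark over the gene or within 1 kb of its ends. Pcdhb6 to Pcdhb14, 9 genes in a row, formed the longest run of members without a mark at the start, and the last 5 genes, Pcdhb18 to Pcdhb22, formed another. In the gamma subcluster 13 of 21 starts had no mark, all of them among the 18 alternate genes, including Pcdhga2, Pcdhgb1 and Pcdhga12.

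The same division appeared in the base pairs under peaks. H3K27me3 covered 17.2% of the alpha subcluster (44.6 kb in 33 peaks), 4.83% of the beta subcluster (12.4 kb in 11 peaks) and 0.524% of the gamma subcluster, against 7.92% of chromosome 18 and 14.1% of the autosomes. H3K27ac covered 8.66% of the gamma subcluster (15.6 kb in 6 peaks) and none of the alpha and beta subclusters, against 2.96% of chromosome 18 and 4.92% of the autosomes. H3K4me3 covered 5.35% of the gamma, 0.601% of the beta and 0.135% of the alpha subcluster, against 0.972% of chromosome 18 and 1.32% of the autosomes. The alpha subcluster was above chromosome 18 for H3K27me3 alone, and the gamma subcluster above it for both active marks. The alpha share of H3K27me3 was closer to that of the autosomes, and it came mostly from weak peaks. Of the 33 peaks, 2 had a −log10 q of 5 or more, and these covered 2.35% of the alpha subcluster. The shares of chromosome 18 and the autosomes under such peaks were not computed. H3K27me3 was not confined to the alpha genes. It covered 19.4% of the stretch between the alpha and beta subclusters and 11.8% of that between beta and gamma.

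Within the alpha subcluster H3K27me3 was densest at the end. From the start of Pcdhac2 to the last alpha base, a stretch of 45.2 kb, 51.8% was under H3K27me3 peaks. Of the 11 peaks there, 1 had a −log10 q of 5 or more, so most of this cover came from weak peaks. From Pcdha1 to Pcdhac1 the figure was 11.1%, and between the starts of Pcdhac1 and Pcdhac2 it was 6.36%. The widest H3K27me3 peak of the subcluster, 11.6 kb with a fold of 1.84, lay inside Pcdhac2 (37150569 to 37162211). Of the 33 peaks, 11 lay within 1 kb of a start. Of the 33 peaks, the last 11, at the start of Pcdhac2 and beyond it, overlap all 14 alpha genes. All 14 genes therefore counted as marked over the gene. They also all counted as marked at either end. At the far end 13 did so through the same peak (37184127 to 37186824), and Pcdha6 counted by its start.

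Within the gamma subcluster the active marks were densest at the end too. From the start of Pcdhgc3 to the last base, 41.9% of 35.5 kb was under H3K27ac and 18.8% under H3K4me3, and none was under H3K27me3. Besides the peaks at the 3 starts, 2 H3K27ac peaks there shared no base with H3K4me3. The first, of 3403 bp and a fold of 3.08, began 4.40 kb past the start of Pcdhgc5. The other, of 5541 bp and a fold of 4.40, began 15.0 kb past it (37834557 to 37840097) and was stronger than any H3K27ac peak at a member start. Every gamma gene contains these 2 peaks, so all 21 had H3K27ac over the gene while 4 had it at the start.

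Acetylation went on past the last gamma exon into Diaph1, a formin gene that assembles actin filaments. Enhancers of the protocadherin cluster have been described in mouse downstream of the gamma genes. In the 100 kb after the last member base lay 9 H3K27ac peaks, 8 of them touching Diaph1, and in the 100 kb before Pcdha1 lay none. The nearest to the cluster began 4.93 kb past it and was the strongest and widest of the 9, with a fold of 7.65 over 7655 bp (37846800 to 37854454), and 97.5% of the H3K27ac list had a lower fold. A second strong peak, of 1557 bp and a fold of 7.34, began 41.5 kb past the cluster. Neither shared a base with H3K4me3. Which gene, if any, these peaks act on was not tested.

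**Figure D4:**
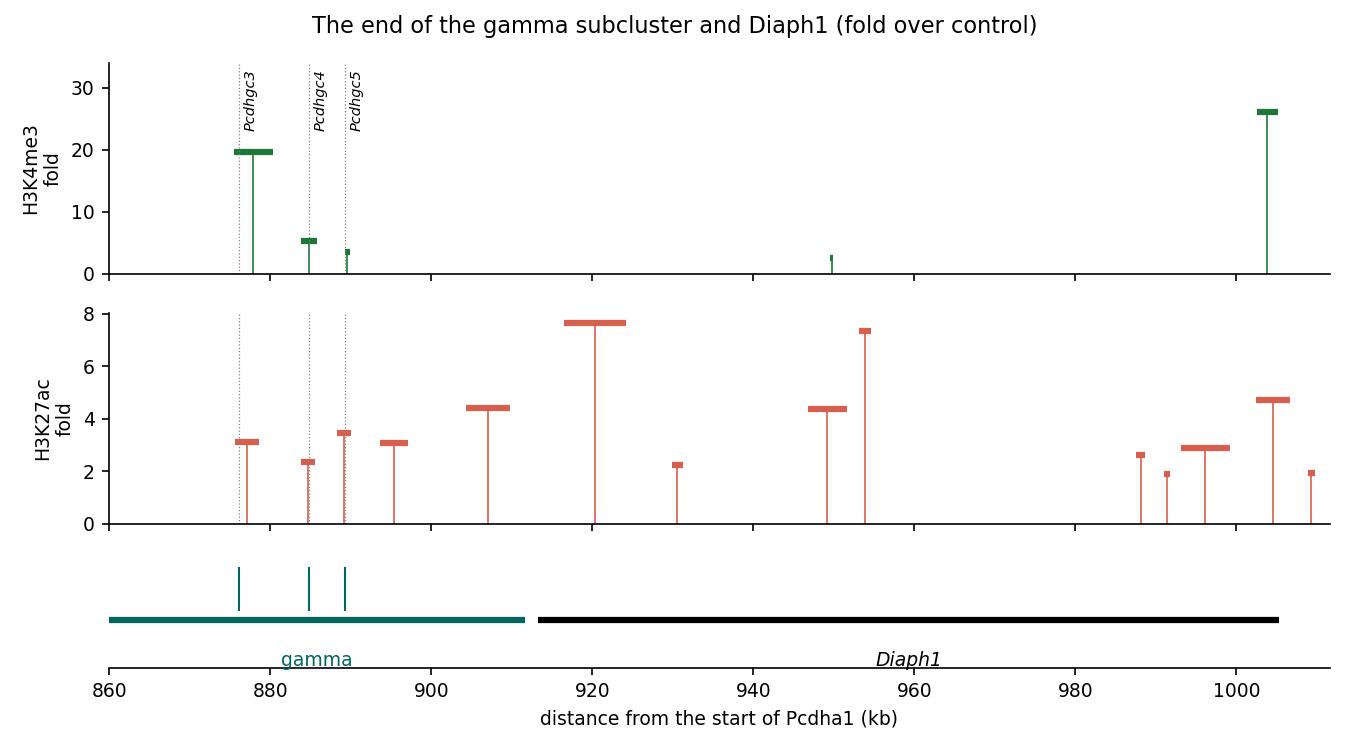
H3K4me3 and H3K27ac peaks from the C-type gamma genes into Diaph1. The x axis gives the distance from the start of Pcdha1 in kb, the y axes the authors' fold, bars span each peak, and dotted lines mark the 3 C-type starts. H3K4me3 stands at the C-type starts and at the far end of Diaph1, with 1 weak peak inside Diaph1 (fold 2.57), while H3K27ac has several peaks in between, up to a fold of 7.65 just past the gamma subcluster.

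The H3K27ac-free stretch that holds the alpha and beta subclusters ran for 842 kb, from 36802080 to 37643678, and contained 36 member starts, all those of both subclusters. It ended at Taf7, which encodes a TFIID subunit and lies between the beta and gamma subclusters. On chromosome 18, 14 of 1496 stretches between H3K27ac peaks were longer, and on the autosomes 254 were. These counts do not give the share of bases that lies in such long stretches. Alpha and beta starts lay 125 to 379 kb from the nearest H3K27ac peak, and gamma starts at most 49.7 kb from one.

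Neighbouring genes that are not protocadherins did carry the active marks. Taf7 had an H3K4me3 peak with a fold of 26.6 and an H3K27ac peak with a fold of 5.39. Diaph1 had folds of 26.1 and 4.71 for these marks at a gene end, and Zmat2, a splicing factor gene before the cluster, 29.1 and 2.87. The models Gm37013, Gm38666 and Gm38667, which run across the subclusters, were left out of this count. Of the 12 other genes inside or beside the cluster, 9 had H3K4me3 and 10 had H3K27ac within 1 kb of either end. The shares of all protein-coding genes were 55.8% and 53.4%. None of the 12 had H3K27me3, against 32.3%. Slc25a2, a mitochondrial carrier gene beside Taf7, and Arap3 had no mark.

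HEB had no site in the cluster or within 100 kb of it. The nearest of the 16 HEB sites on chromosome 18 lay 877 kb past the last member. The list is sparse, with 874 sites on the autosomes, and an even rate over the autosomes would put 0.332 sites in a span of this length, so a lack of binding cannot be read from it.

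The non-clustered protocadherins, which are encoded by separate genes with their own promoters, were marked more often. At either gene end, the clustered genes had H3K4me3 at 12 of 57 (21.1%), H3K27ac at 4 (7.02%) and H3K27me3 at 17 (29.8%). The H3K27me3 count is not one of independent genes. At the far end, 13 alpha members counted through the same peak, with a −log10 q of 2.15, and 11 of 57 members had H3K27me3 at the start. The 12 non-clustered genes had H3K4me3 at 9, H3K27ac at 4 and H3K27me3 at 8, and all 21887 protein-coding genes had these marks at 55.8%, 53.4% and 32.3%. Pcdhgc3, with an H3K4me3 fold of 19.7, stood below Pcdh18 at 20.1 and above Pcdh9 at 17.7 and Pcdh7 at 16.1. Pcdh1, Pcdh7, Pcdh18 and Pcdh19 had H3K27ac, and of these Pcdh1 and Pcdh19 also had H3K27me3, at folds of 2.05 and 1.62. Pcdh8, Pcdh10, Pcdh11x and Pcdh17 had H3K27me3 with H3K4me3 and without H3K27ac. The H3K4me3 fold was low at Pcdh8 (1.94) and Pcdh11x (1.86).

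The Hox genes, another clustered family, carried H3K27me3 at most members. Of 39 Hox genes, 34 had H3K27me3 at either end (87.2%), 19 had H3K4me3 (48.7%) and 16 had H3K27ac (41.0%). Over all protein-coding genes the shares were 32.3%, 55.8% and 53.4%. The Hox counts are not of independent genes either. The Hoxc genes shared an H3K27me3 peak of 182 kb, and several Hoxa genes one of 138 kb. When peaks under a −log10 q of 5 were left out, H3K27me3 was at either end of 2 of 57 clustered protocadherins, those being Pcdha11 and Pcdhac2, and of 30 of 39 Hox genes, with 17.1% of all protein-coding genes as background. Of 10 cadherin genes, 4 had H3K4me3 (40.0%), 4 had H3K27ac (40.0%) and 6 had H3K27me3 (60.0%) at either end. The shares over all protein-coding genes were 55.8%, 53.4% and 32.3%.

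Genes whose products act on the clusters were marked about as often as other genes. Of 15, 10 had H3K4me3 (66.7%), 9 had H3K27ac (60.0%) and 4 had H3K27me3 (26.7%) at either end, against 55.8%, 53.4% and 32.3% of all protein-coding genes. Ctcf had folds of 29.5 for H3K4me3 and 6.65 for H3K27ac, the cohesin subunit gene Smc3 34.9 and 10.4, and Smchd1, a repressor of the clusters in mouse, 43.1 and 8.56. Dnmt3b, which methylates these promoters in mouse, had H3K4me3 at 22.7 with H3K27me3 at 1.72 and no H3K27ac, and Dnmt3a had H3K27me3 alone. Dnmt1, Stag1 and Nipbl had no mark at the gene ends used, which are the outermost ones in the table. All 6 Polycomb genes, including Ezh2, Eed and Suz12, had H3K4me3 and H3K27ac.

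Marker genes were checked against the label of the line at either gene end, where 55.8% of all protein-coding genes had H3K4me3, 53.4% H3K27ac and 32.3% H3K27me3. H3K27ac lay at 9 of 10 mammary epithelial markers, among them Krt14, Krt8 and Gata3 but not Trp63, and H3K4me3 at 8. H3K27me3 lay at 4 of these 10, Krt5, Epcam, Esrp1 and Cdh1, each of which also had both active marks. Of 14 neuronal markers 10 had H3K27me3, including Rbfox3 and Gad1, 5 had H3K4me3, and 2, Map2 and Dlg4, had H3K27ac. H3K27ac lay at none of 4 immune and at 2 of 4 fibroblast markers, Dcn and Pdgfrb.

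Clustered protocadherins are close paralogs with similar first exons. The treatment of reads that match several of them (not given in the sources used here) is unknown, and its part in the weak or missing peaks was not tested.

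**Figure D5:**
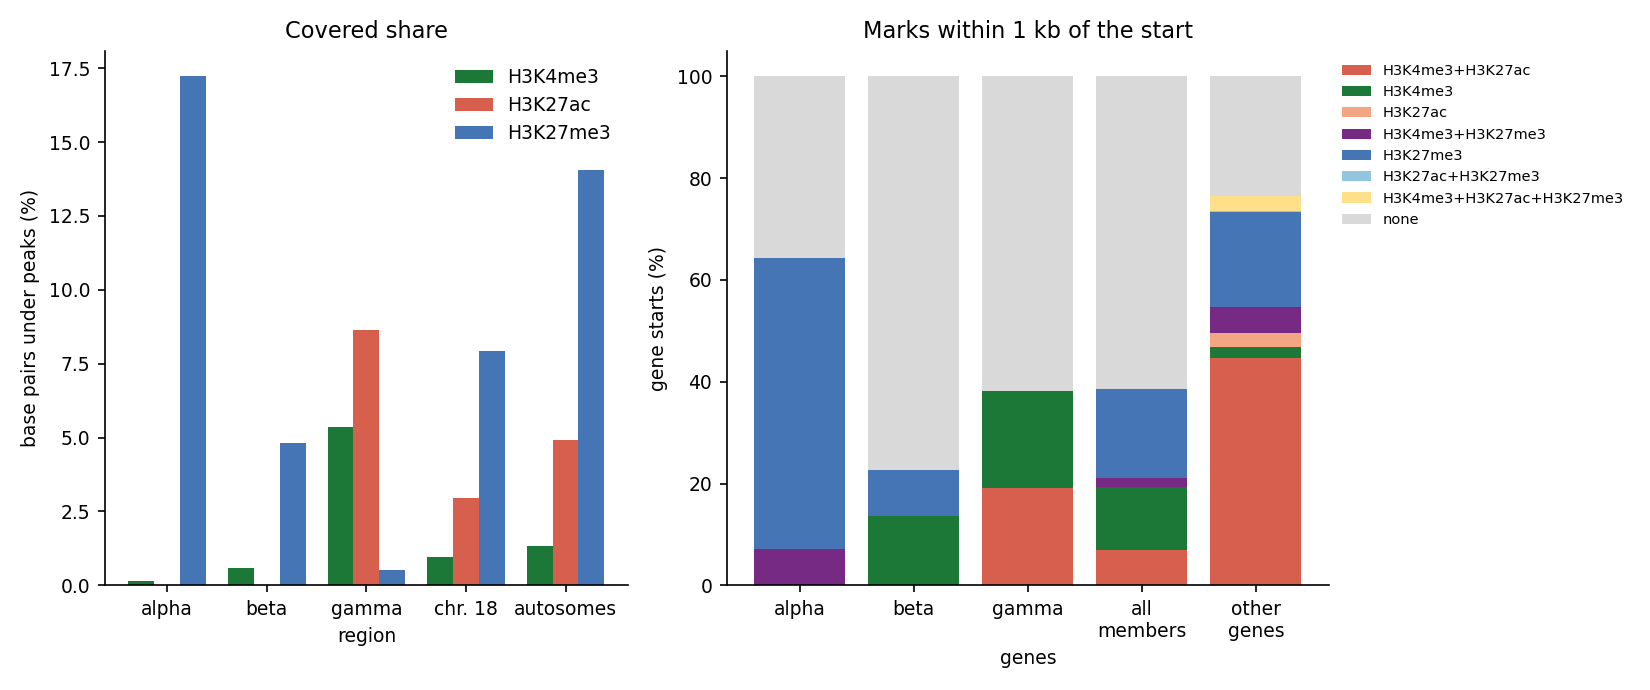
Left, percent of base pairs under peaks of each mark in the 3 subclusters, chromosome 18 and all autosomes. Right, percent of gene starts in each combination of marks for the subclusters, all 57 members and 17492 other protein-coding genes. H3K27me3 leads in alpha at 17.2% of base pairs and H3K27ac in gamma at 8.66%, and starts without a mark make up 61.4% of members against 23.6% of other genes.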

How the data were processed

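Peak lists for 4 antibodies were analysed in mm10 coordinates, the build named, with SAMtools, in the submitters' processing notes. The aligner, peak caller and control (not given in the sources used here) are unknown. For HEB the list holds positions of a replicate consensus with a minimum overlap of 2, per its deposited name. Each histone list gives, as deposited by the authors, a fold enrichment (ratio of ChIP over control) and a −log10 q per peak, and a score of about 10 times the −log10 q, not used further.

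Genes came from the RefSeq table of GRCm38.p6, on which mm10 is based. Strand for 17492 other genes came from the RefSeq promoter table, without chromosome 18, whose strands were not used here, and their outermost 5′ end was the start. Overlap meant 1 bp or more. Of several peaks at a start, that with the highest fold is given. Chromosome lengths ran from first to last peak. No count test was possible, since lists carry no replicates. Members, lists and the rule for named genes (members with an active mark, C-type, strongest or widest H3K27me3, first and last, unmarked) were chosen with earlier results of these data known. Overlap code recovered 400 of 400 simulated windows. Python 3.11.15, numpy 2.4.6 and pandas 2.3.3 were used. The 4 replicates are called biological in the design.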

Additional observations from a re-analysis of the deposited data

How the results depend on the processing

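Of 125 alternatives, 78 kept the value within 1.5 times. Weak peaks decided most of the others. Without peaks under a −log10 q of 5, H3K4me3 was at 7 member starts in place of 12, H3K27ac at 2 in place of 4 and H3K27me3 at 2 in place of 11. The members kept for H3K27ac were Pcdhgc3 and Pcdhgc5, and those for H3K27me3 Pcdha11 and Pcdhac2. At either end the counts were 7, 2 and 2, and the span held 9 H3K4me3 and 2 H3K27me3 peaks in place of 14 and 64. The combination of H3K4me3 and H3K27ac was at 2 members, H3K27me3 alone at 2 and H3K4me3 with H3K27me3 at 0. H3K4me3 covered 0% of the alpha subcluster, and H3K27me3 covered 2.35% of the alpha and 0% of the beta and gamma subclusters. H3K27me3 at either end was at 3 non-clustered protocadherins, 0 factors that act on the clusters and 0 immune markers.

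With the upper 50% of each list by fold, H3K4me3 was at 1 start, Pcdhgc3, and at 1 member by either end, and H3K27ac was at 2 starts and at 2 members by either end. H3K27me3 was at 9 members by either end. H3K4me3 lay over 19 genes in place of 29, and the span held 2 H3K4me3 and 24 H3K27me3 peaks. H3K4me3 with H3K27ac was then at 1 member, H3K4me3 alone at 0, H3K27ac alone at 1 and H3K4me3 with H3K27me3 at 0. H3K4me3 covered 0% of the alpha, 0% of the beta and 2.70% of the gamma subcluster, and H3K27me3 10.8%, 2.99% and 0%.

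A window of 2500 bp put H3K27ac at either end of 21 members, because the H3K27ac peak near the shared gamma end then counted, and one of 500 bp put H3K27me3 at 10 in place of 17. Asking for 50% of the gene left 0 genes for H3K4me3, 0 for H3K27ac and 1 for H3K27me3. Flanks of 50 kb held 1 H3K4me3, 4 H3K27ac and 0 H3K27me3 peaks, and flanks of 250 kb held 14, 25 and 23, against 2, 9 and 5 at 100 kb. HEB sites stayed at 0 in each. At the start, the other windows, an overlap of 200 bp and the peak midpoint kept every count within 1.5 times.

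The background taken from any listed promoter, an alternative chosen after seeing the data, was 57.8% for H3K4me3, 52.7% for H3K27ac and 27.4% for H3K27me3. No paired analysis was possible because the lists carry no replicate columns. Read depth is unknown, so a start without a peak is not shown to lack the mark.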

Other observations

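One H3K4me3 peak inside the cluster lay at no member start and at no other protein-coding gene end. It was 239 bp wide with a fold of 2.61, and it lay 5.86 kb before the start of Pcdhga1 (chromosome 18, 37655674 to 37655912). A further one of 307 bp and a fold of 2.57 lay in Diaph1, 38.0 kb past the last member base, inside an H3K27ac peak of 4876 bp.

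The gene table also holds 3 protein-coding models, Gm37013, Gm38666 and Gm38667, which are not members by symbol. They run 868 to 889 kb across all 3 subclusters and end at the last gamma exon.

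A stretch of 300.2 kb without H3K27me3 (37679140 to 37979312) held 18 gamma starts, from Pcdhgb1 to Pcdhgc5. On chromosome 18, 49 of 3051 stretches between H3K27me3 peaks were longer, and on the autosomes 1220 were. Here too the counts do not give the share of bases in such stretches.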
